A study of Saccharomyces cerevisiae with 40 samples.

Results

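The 4 arrays described here compared untreated yeast that lack YAP1 or CAD1 with untreated yeast of the parental strain. They were all arrays of the series on which Yap1-Null or Cad1-Null RNA was hybridised against Parent RNA, 2 arrays for each deletion, among 40 samples in all and 20 on the Agilent oligonucleotide platform. The Parent is the haploid Saccharomyces cerevisiae strain BY4741 (MATa, his3Δ, leu2Δ0, met15Δ0, uraΔ0), and Yap1-Null and Cad1-Null are deletion strains in that background from a commercial collection, so every strain carries the same auxotrophies. Cells grew in synthetic complete medium and none of the RNA on these arrays came from cells given arsenite (AsIII). The sources used here do not say how many clones or cultures stand behind each RNA, or whether the same Parent RNA met both deletion strains. On the first array of each pair the deletion strain was labelled with Cy5 and Parent with Cy3, and on the second the dyes were exchanged.

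Yap1 and Cad1 (Yap2) are transcription factors of the fungal AP-1 family, which bind DNA through a basic leucine zipper. Yap1 collects in the nucleus when oxidants or electrophiles modify its cysteines, and there it turns on genes for thioredoxin, glutathione and NADPH-dependent reductases. Cad1 has a closely related DNA-binding domain and is known for cadmium tolerance and for genes that stabilise proteins under oxidative stress. The arrays ask which genes depend on either factor before any arsenic is added, and how far the deletions of these related factors resemble each other.

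Each value is a log2 ratio of deletion strain over Parent, so -1 is a 2-fold lower and 1 a 2-fold higher level in the deletion strain. The mean of a dye-swapped pair was taken as 1 replicate (n = 1 per strain), and limma tested it on 5598 genes. The standard error, 0.17 for a strain and 0.24 for the difference between strains, was the same for every gene, because it came from the only condition with 2 pairs (Parent given AsIII) and a spread shared by all genes. It does not cover the spread between cultures of a deletion strain, or the gap between the 2 arrays of a pair. A gene is called changed below where its adjusted p was under 0.05 and both arrays had the same sign.

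The arrays of opposite dye orientation disagreed for most genes. Among the 5598 genes, 30.2% had the same sign on both Yap1-Null arrays and 37.6% on both Cad1-Null arrays, and across genes the arrays of a pair correlated at -0.48 and -0.14. On the arrays of Parent with AsIII the same measures were 83.7% and 87.0%, with correlations of 0.88 and 0.93. By contrast, Yap1-Null and Cad1-Null arrays of the same orientation correlated at 0.77 in each orientation, and the deviations of the first arrays from their pair means correlated at 0.88 between the strains. NPL3, chosen after its values were seen as the gene with the widest gap, had -3.99 and 3.48 on the Yap1-Null arrays, and -2.16 and 1.84 on the Cad1-Null arrays. Its pair mean in Yap1-Null was -0.25. A pair mean cancels a dye effect that is equal in both orientations, and whether it was equal was not tested. Median log2 ratios of the 4 arrays lay between -0.022 and -0.003, and no chromosome moved as a whole: over the 16 chromosomes the medians of pair means lay between -0.062 and 0.024.

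**Figure D1:**
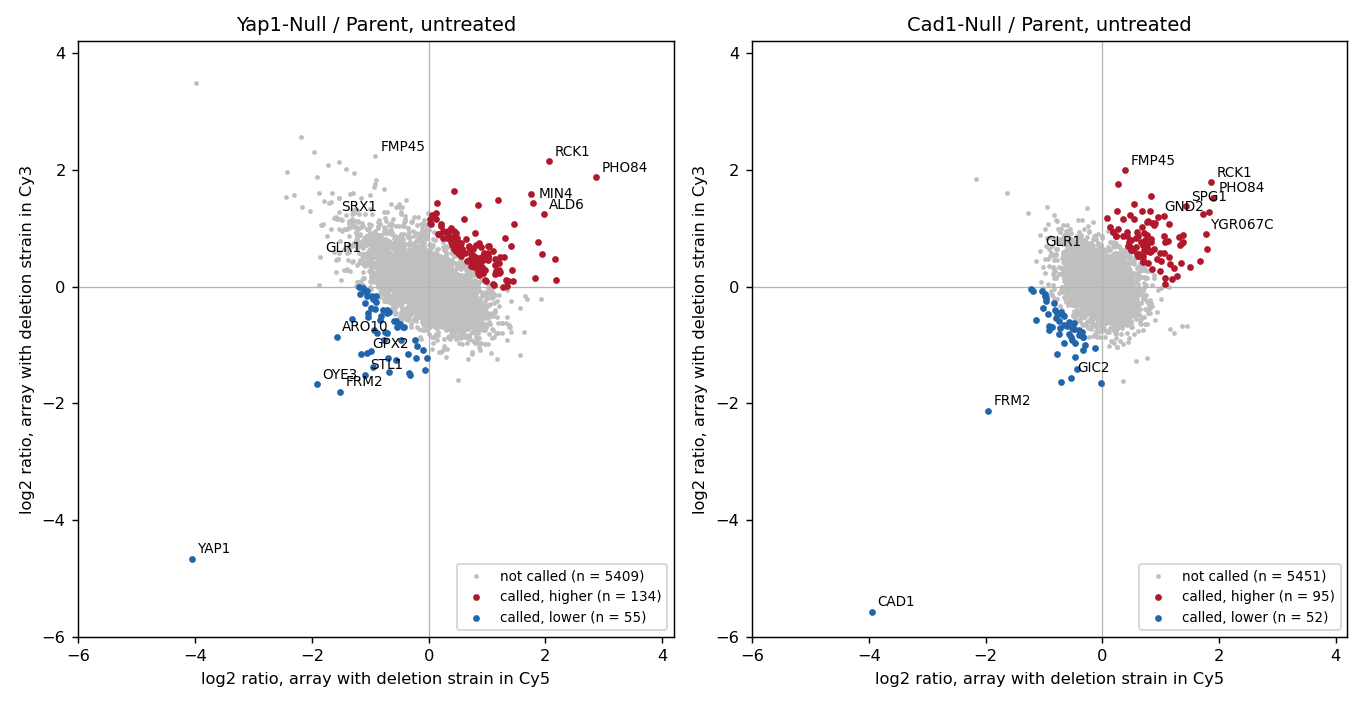
Each point is a gene, with the log2 ratio of deletion strain over Parent on the array with the deletion strain in Cy5 (x axis) against the array with the dyes exchanged (y axis), for Yap1-Null (left) and Cad1-Null (right); red and blue mark genes called higher (134 and 95) or lower (55 and 52). Most genes scatter from upper left to lower right in Yap1-Null, where the orientations disagree, while YAP1, CAD1, FRM2, RCK1 and PHO84 lie far out with the same sign on both arrays.

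The deleted genes checked the labels and the direction of the ratios. The YAP1 probe read -4.05 and -4.66 on the Yap1-Null arrays, against 0.30 and 0.04 on the Cad1-Null arrays. The CAD1 probe read 0.41 and -0.42 on the Yap1-Null arrays, and -3.94 and -5.57 on the Cad1-Null arrays. Each deleted gene was thus far below Parent on both arrays of its own strain, in both dye orientations, and YAP1 fell by 4.35 and CAD1 by 4.75 on the log2 scale (20.5-fold and 27.0-fold). Neither factor's gene was called in the other deletion: CAD1 had a mean of -0.01 in Yap1-Null (95% interval -0.34 to 0.33) and YAP1 a mean of 0.17 in Cad1-Null (-0.16 to 0.51). Both CAD1 values in Yap1-Null, 0.41 and -0.42, lie outside that interval, which does not cover the gap between arrays. The other 6 measured members of the Yap family, YAP3, CIN5, YAP5, YAP6, YAP7 and ARR1, had means between -0.16 and 0.24 in the 2 strains, and none was called.

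Among 12 measured neighbours of YAP1 on chromosome XIII, 1 was called in Yap1-Null. MIN4 (YML007C-A), a short open reading frame between ERG6 and YAP1, had 1.79 and 1.43 in Yap1-Null, against -0.01 and 0.26 in Cad1-Null. Its 2 probes read 1.60 and 1.98 on the first Yap1-Null array, and 1.47 and 1.39 on the second. MIN4 was 3.05-fold higher in Yap1-Null than in Parent (adjusted p = 7.82e-18), and the strains differed by 1.49 (SE 0.24, adjusted p = 1.95e-06). ERG6 and GIS4, which lie next to MIN4 and on the other side of YAP1, had Yap1-Null means of 0.05 and 0.30 and did not pass. Around CAD1 on chromosome IV none of 12 neighbours was called in Cad1-Null, where their means lay between -0.20 and 0.10, SIP1 and DYN2 on either side included.

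**Figure D2:**
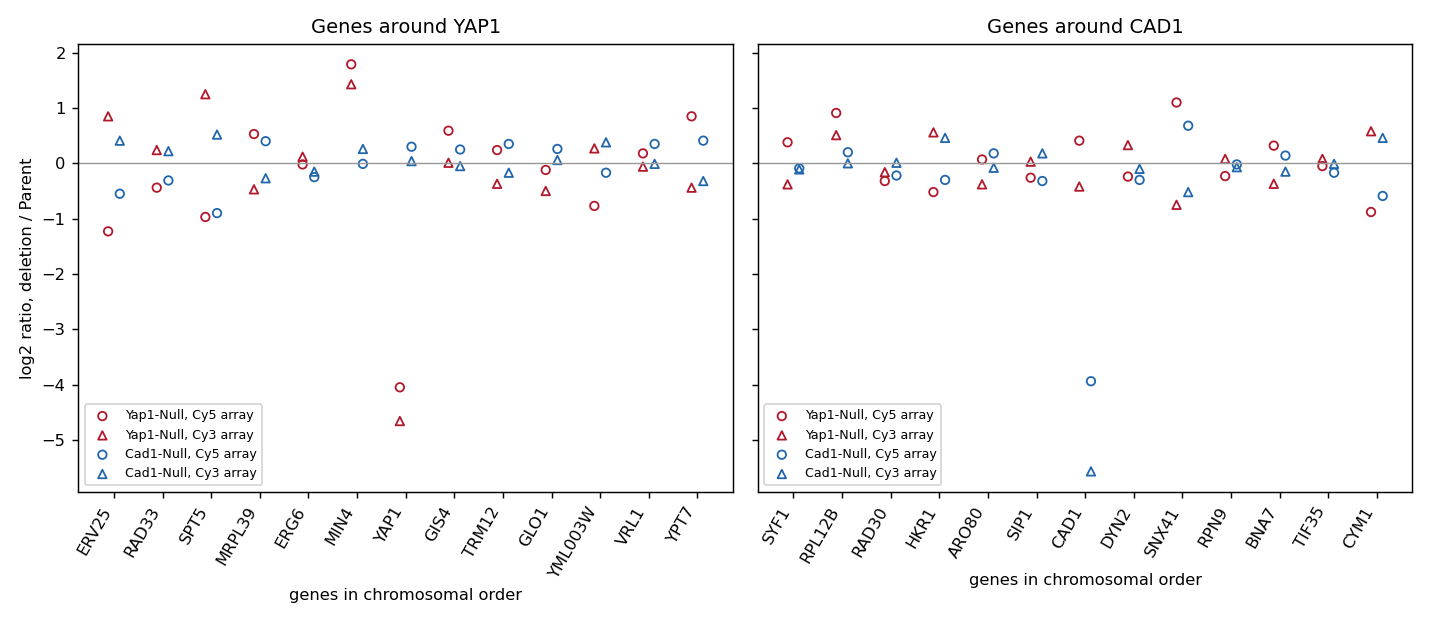
Log2 ratios of deletion strain over Parent (y axis) for 6 genes on each side of YAP1 (left) and CAD1 (right), in chromosomal order (x axis); red is Yap1-Null, blue is Cad1-Null, circles are arrays with the deletion strain in Cy5 and triangles arrays with it in Cy3. Only the deleted gene falls far below 0, and MIN4 is the neighbour with both Yap1-Null arrays above 1.

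In Yap1-Null the genes that fell most included several oxidoreductases, and those that rose most included PHO84, RCK1 and MIN4. Of 5598 genes, 134 rose in Yap1-Null (2.39% of those tested) and 55 fell (0.982%), among 217 that passed the test. The other 28 that passed had opposite signs on the arrays and are not counted. At an unadjusted p under 0.05 there were 655 genes. With each array as a replicate 75 genes passed, and 1564 once the array number was added as a block. With that block the value tested stands at array 1, with Yap1-Null in Cy5, and not at the pair mean. The arrays with Yap1-Null in Cy5 gave 2053 genes on their own and those with it in Cy3 gave 331, so the number of calls varied widely with the arrays used. At least 2-fold changes of the same sign were seen in 15 genes upwards and 10 downwards.

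After YAP1 itself, the lowest gene in Yap1-Null was OYE3, an NADPH oxidoreductase of the old yellow enzyme family, at -1.91 and -1.67. Its 2 probes lay between -2.04 and -1.58, and it was 3.46-fold below Parent (adjusted p = 4.52e-22). In Cad1-Null OYE3 had -0.84 and 0.03, which did not pass. FRM2, which resembles bacterial nitroreductases, was low in both strains, with -1.51 and -1.80 in Yap1-Null and -1.96 and -2.13 in Cad1-Null. The strains' FRM2 values differed by 0.39 (95% interval -0.08 to 0.87), which did not pass. HBN1, the gene beside FRM2 and its relative, had -0.68 and -1.47 in Yap1-Null and -0.26 and -0.47 in Cad1-Null, and only the Yap1-Null value passed. The difference between the strains for HBN1, -0.71, did not pass.

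STL1, a glycerol-proton symporter of the plasma membrane, read -1.09 and -1.51 in Yap1-Null, against 0.08 and -0.04 in Cad1-Null. YML131W, which resembles medium-chain reductases, read -1.15 on each Yap1-Null array, against 0.13 and 0.38 in Cad1-Null. GPX2, a glutathione peroxidase that reduces lipid hydroperoxides, read -1.05 and -1.14 in Yap1-Null, against -0.10 and -0.09 in Cad1-Null. For these 3 genes the Yap1-Null arrays did not overlap the Cad1-Null arrays, and both probes of each gene were below 0 on both Yap1-Null arrays. They were picked as calls in Yap1-Null and in the difference between strains, so this follows in part from the choice. The share of all genes without overlap was not counted. YNL134C, an alcohol dehydrogenase relative, was lower in Yap1-Null at -0.95 and -1.37, and read -0.09 and -0.86 in Cad1-Null, which did not pass. The difference between the strains for YNL134C, -0.68, did not pass either (limma adjusted p = 0.982). ARO10, which decarboxylates phenylpyruvate in the breakdown of aromatic amino acids, fell in both strains, to -1.57 and -0.86 in Yap1-Null and -1.13 and -0.58 in Cad1-Null. BTN2, a sorting factor for misfolded proteins, also fell in both, to -0.99 and -1.10 in Yap1-Null and -0.78 and -1.16 in Cad1-Null.

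The genes known as Yap1 targets were set out in 3 lists, of which 46 of 49 entries were measured. In Yap1-Null 9 of the 46 fell and 1 rose, and in Cad1-Null 1 fell and 2 rose. The background was 0.982% lower and 2.39% higher among all genes in Yap1-Null, and 0.929% lower and 1.70% higher in Cad1-Null. The members that fell were mostly reductases: 7 of 18 genes for reductases and oxidant-induced proteins (OYE3, FRM2, YNL134C, YML131W, HBN1, YLR460C and GRE2), with a list median of -0.43 in Yap1-Null and 0.03 in Cad1-Null. In the other untreated deletions the median of this list was -0.24 in Arr1-Null and -0.5 in Rpn4-Null, so a low median was not particular to Yap1-Null. All genes together had a median of -0.02 in Yap1-Null and -0.01 in Cad1-Null. GRE2, a methylglyoxal reductase, read -0.20 and -1.02 in Yap1-Null, and 0.64 and 0.16 in Cad1-Null. The aryl-alcohol dehydrogenase gene AAD6 had opposite signs on the arrays, with -1.68 and 0.99 in Yap1-Null, and was not called.

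Of the 18 genes of the thioredoxin and glutathione systems 2 fell in Yap1-Null, GPX2 and GTT2, a glutathione transferase at -1.05 and -0.17. ECM4, another glutathione transferase, rose in both strains, to 0.40 and 0.74 in Yap1-Null and 0.60 and 0.94 in Cad1-Null. The list had a median of -0.38 in Yap1-Null, 0.06 in Cad1-Null, -0.09 in Arr1-Null and 0.02 in Rpn4-Null. Its medians on single Yap1-Null arrays were -0.44 with the deletion strain in Cy5 and -0.06 with it in Cy3. In both orientations 14 of the 18 genes were lower in Yap1-Null than in Cad1-Null and 0 were higher, against 1283 lower and 1192 higher among all 5598. TRX2, the cytoplasmic thioredoxin that is a classic Yap1 target, had -0.50 and -0.26 in Yap1-Null, and 0.12 and 0.24 in Cad1-Null. GSH1, the first enzyme of glutathione synthesis, had -0.26 and -0.58 in Yap1-Null, and -0.17 and -0.12 in Cad1-Null. Neither passed in either strain. All Yap1-Null arrays of both genes lay below the Cad1-Null arrays, but the share of all genes that do so was not counted. GLR1 (glutathione reductase, -1.86 and 0.50), TSA1 (peroxiredoxin, -1.24 and 0.01) and SOD1 (copper-zinc superoxide dismutase, -1.13 and 0.02) passed on their Yap1-Null means with opposite signs on the arrays, so they are not counted.

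Of 10 membrane transporters known as Yap1 targets 0 were called in either strain, and their medians were -0.09 in Yap1-Null and -0.07 in Cad1-Null. YCF1, which carries glutathione conjugates of arsenite into the vacuole, had -0.51 and -0.16 in Yap1-Null, and -0.35 and -0.38 in Cad1-Null. The drug exporters ATR1 and FLR1 had -0.98 and -0.04, and -0.02 and -0.38, in Yap1-Null. The arsenite genes ARR2 (arsenate reductase), ARR3 (arsenite efflux) and FPS1 (a glycerol channel that admits arsenite) had means from -0.16 to 0.23 in Yap1-Null and from -0.10 to 0.17 in Cad1-Null. The redox regulators that pass oxidation to Yap1 or export it, HYR1, YBP1 and CRM1, had means of 0.25, -0.08 and -0.08 in Yap1-Null, and 0.39, 0.10 and -0.20 in Cad1-Null. None of these genes was called.

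**Figure D3:**
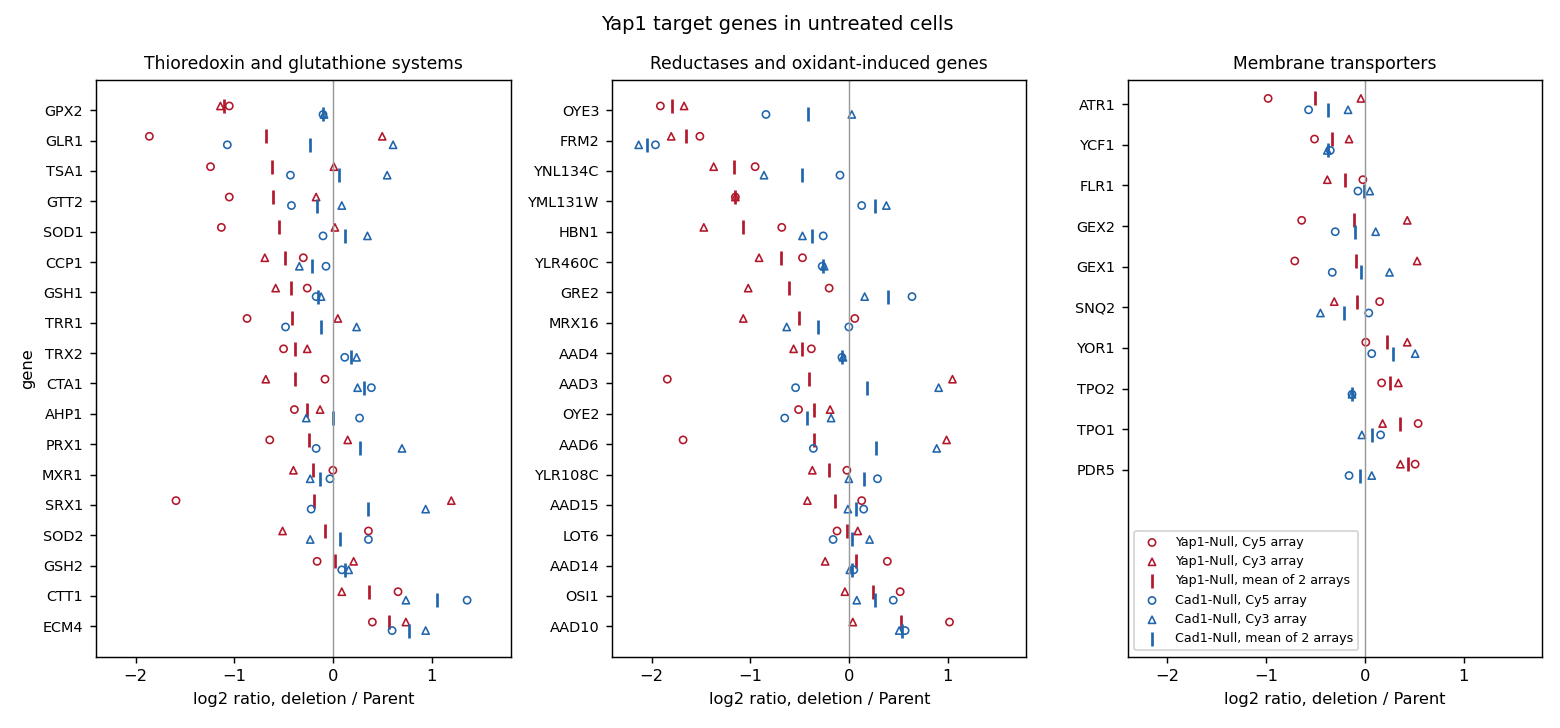
Log2 ratios of deletion strain over Parent (x axis) for the 46 measured Yap1 target genes in 3 groups; red is Yap1-Null, blue is Cad1-Null, circles are arrays with the deletion strain in Cy5, triangles arrays with it in Cy3, and bars the mean of both. OYE3, YML131W, HBN1 and GPX2 are among the genes with both Yap1-Null arrays below both Cad1-Null arrays. They were picked from the calls in Yap1-Null, so this follows in part from the choice, and the share of all genes was not counted. FRM2 is low in both strains, and the wide gaps for AAD3, AAD6, SRX1 and GLR1 lie between dye orientations.

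The highest genes in Yap1-Null were PHO84, a high-affinity phosphate transporter, and RCK1, a protein kinase of the oxidative stress response. PHO84 read 2.87 and 1.87 in Yap1-Null, and 1.90 and 1.52 in Cad1-Null. RCK1 read 2.06 and 2.15 in Yap1-Null, and 1.86 and 1.79 in Cad1-Null. Both genes were thus high on all 4 arrays (5.16-fold and 4.30-fold in Yap1-Null, 3.27-fold and 3.55-fold in Cad1-Null). The difference between the strains was 0.66 (95% interval 0.18 to 1.14) for PHO84 and 0.28 (-0.20 to 0.75) for RCK1, and neither passed after adjustment. ALD6, the cytosolic aldehyde dehydrogenase, read 1.97 and 1.24 in Yap1-Null, and 1.82 and 1.28 in Cad1-Null. FMP48, a putative kinase, read 1.75 and 1.58 in Yap1-Null, and 1.72 and 1.25 in Cad1-Null. HXT2, a glucose transporter, was at 1.47 and 1.07 in Yap1-Null, and 1.06 and 0.58 in Cad1-Null. SUT1, CPP3, YGR067C and YJR115W completed the 10 highest in Yap1-Null with MIN4, with means between 1.26 and 1.34.

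Several genes that rose with either deletion were also high in the other untreated deletions of the series. PHO84, RCK1 and FMP48 had means of 0.87, 0.84 and 0.98 in Arr1-Null, and 0.45, 1.86 and 2.09 in Rpn4-Null. FRM2 had -0.38 in Arr1-Null and -1.89 in Rpn4-Null. OYE3 was at -1.21 in Arr1-Null and -1.00 in Rpn4-Null, and YML131W at -0.08 and -0.99. In the same order STL1 was at -0.54 and -1.05, HBN1 at -0.53 and -1.58, and YNL134C at -0.90 and -0.75. GPX2 and GRE2 were not low there, at 0.27 and 0.10, and 0.43 and 0.21. Every deletion strain was set against Parent, so a change in the Parent cultures would appear in all of them, and the deletion and such a change cannot be told apart in either strain's own ratios. The ARR1 gene read -0.95 on the first and -3.60 on the second Arr1-Null array, so the first array of that strain goes partly against its label.

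In Cad1-Null, 95 genes rose (1.70%) and 52 fell (0.929%) among 150 that passed, and 436 had an unadjusted p under 0.05. With each array as a replicate 74 genes passed, and 768 once the array number was added as a block. With that block the value tested again stands at array 1, with Cad1-Null in Cy5. The arrays with Cad1-Null in Cy5 gave 288 genes on their own and those with it in Cy3 gave 28. At least 2-fold changes of the same sign were seen in 20 genes upwards and 4 downwards, CAD1, FRM2, SPS1 and GIC2. SPS1, a kinase of sporulation, read -0.31 and -1.51 in Yap1-Null, and -0.70 and -1.64 in Cad1-Null. GIC2, an effector of the polarity GTPase Cdc42, read 0.50 and -1.60 in Yap1-Null, and -0.53 and -1.56 in Cad1-Null. CUP1-1, a metallothionein whose copies are nearly identical and share probes, read -0.03 and -1.65 in Cad1-Null. These 3 genes were lowest where the deletion strain was in Cy3. ZPR1, which helps fold elongation factor eEF1A, fell on both arrays to a similar degree, -0.91 and -0.74 in Cad1-Null. SPG1, named for survival of stationary phase at high temperature, read 0.79 and 0.92 in Yap1-Null, and 1.43 and 1.38 in Cad1-Null. FMP45, YNL195C and PIR3 were also among the 10 highest in Cad1-Null, with means between 1.13 and 1.20.

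Among the lists, the one with the highest median in Cad1-Null held stress genes governed by Msn2 and Msn4, factors that turn on a shared program in poor or stressful conditions. Of 33 such genes 6 rose in Yap1-Null and STL1 fell, with a median of 0.18. In Cad1-Null 15 rose and 0 fell, with a median of 0.51, against 1.70% rising among all genes. GND2, the minor 6-phosphogluconate dehydrogenase, read 0.15 and 0.11 in Yap1-Null, and 0.96 and 1.20 in Cad1-Null. CTT1, the cytosolic catalase, read 0.66 and 0.09 in Yap1-Null, and 1.36 and 0.74 in Cad1-Null. RTN2 read 0.82 and 1.30 in Cad1-Null, and the stress-induced hexose transporter HXT5 read 1.33 and 0.71. XBP1, a repressor induced by stress, was higher on the first than on the second arrays, at 2.19 and 0.11 in Yap1-Null and 1.67 and 0.43 in Cad1-Null. In both orientations 21 of the 33 genes were lower in Yap1-Null than in Cad1-Null and 0 were higher, against 1283 lower and 1192 higher among all genes. The stress genes also lay above Parent in untreated Rpn4-Null, with a list median of 0.40, while the median in Arr1-Null was -0.11. The means of CTT1, GND2, RTN2 and XBP1 were 1.05, 1.08, 1.06 and 1.05 in Cad1-Null, and 1.14, 1.03, 1.90 and 1.28 in Rpn4-Null. In Arr1-Null they were 0.14, -0.03, 1.15 and 0.13.

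Ribosomal protein genes were higher in Yap1-Null than in Parent in many members. Of 52 measured genes for cytosolic ribosomal proteins, 23 rose in Yap1-Null and 0 fell, with a median of 0.53, against 2.39% rising among all genes. In Cad1-Null 1 rose, and the median was 0.11. RPL5 read 1.02 and 0.53 in Yap1-Null, and 0.41 and 0.00 in Cad1-Null. RPS3 read 0.76 and 0.65 in Yap1-Null, and 0.28 and 0.13 in Cad1-Null. In both orientations 37 of the 52 were higher in Yap1-Null than in Cad1-Null and 1 was lower. Among all 5598 genes 1192 were higher and 1283 lower in both orientations. The median difference of the 52 genes was 0.42, but 0 passed as single genes. The values in the other untreated deletions were higher, a difference that was not tested, with list medians of 1.09 in Arr1-Null and 1.32 in Rpn4-Null, where RPL5 had means of 1.35 and 2.03 and RPS3 means of 1.34 and 1.44. Many ribosomal protein genes have a nearly identical copy, and whether their probes tell the copies apart was not tested. The 45 ribosome biogenesis genes had a median of 0.23 in Yap1-Null and -0.05 in Cad1-Null. NSR1 was the only call, at 0.78 and 0.53 in Yap1-Null. With 2.39% of all genes rising in Yap1-Null, nothing is read from 1 call among 45.

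Other groups changed in a few members. Of 27 genes of mating type a and the pheromone response 6 fell in each strain, against 0.982% of all genes in Yap1-Null and 0.929% in Cad1-Null. Among them were FUS1 and FUS2, which act in cell fusion. FUS1 read -0.93 and -0.74 in Yap1-Null, and -0.86 and -0.70 in Cad1-Null. FUS2 read -0.70 and -1.23 in Yap1-Null, and -0.66 and -0.96 in Cad1-Null. BAR1, the protease that degrades alpha pheromone, had -0.06 and -1.43 in Yap1-Null, and -0.44 and -1.41 in Cad1-Null. The pheromone genes MFA1 and MFA2 had opposite signs on the arrays of each strain and were not called, and neither was the alpha-specific receptor gene STE3. Over the 27 genes the median was -0.19 in Yap1-Null, -0.25 in Cad1-Null, 0.11 in Arr1-Null and -0.39 in Rpn4-Null. On single Yap1-Null arrays it was -0.03 with the deletion strain in Cy5 and -0.49 with it in Cy3. On the Cad1-Null arrays it was -0.2 and -0.49, so the low medians came mostly from 1 orientation. Ratios carry no level, so they cannot show which mating type the strains had. HIS3, LEU2, MET17 and URA3, which the background lacks in whole or in part, had means between -0.19 and 0.22.

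Of 21 phosphate genes of Pho4, 3 rose in Yap1-Null and 4 in Cad1-Null, against 2.39% and 1.70% of all genes. PHO89, a sodium-phosphate transporter, read 0.71 and 0.64 in Yap1-Null, and 0.77 and 0.88 in Cad1-Null. SPL2, a regulator of low-affinity phosphate uptake, read 0.89 and 0.68 in Yap1-Null, and 0.78 and 0.41 in Cad1-Null. The list medians were 0.07 in both strains, so the change sat in few members. Of 31 cell wall genes 6 rose in Yap1-Null, with a median of 0.30, while in Cad1-Null 3 rose and 1 fell, with a median of 0.06, against the same shares rising and 0.929% falling in Cad1-Null among all genes. The cell wall list had higher medians in the other untreated deletions, 0.51 in Arr1-Null and 0.76 in Rpn4-Null. PST1 read 0.85 and 1.40 in Yap1-Null, and 0.43 and 0.86 in Cad1-Null.

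Of 26 heat-shock chaperone genes of Hsf1 3 fell in Yap1-Null and 2 in Cad1-Null, with medians of -0.33 and -0.26, against 0.982% and 0.929% of all genes falling. On single arrays the chaperone medians in Yap1-Null were -0.57 with the deletion strain in Cy5 and -0.04 with it in Cy3. In Cad1-Null they were -0.36 and -0.16, so the low Yap1-Null median came mostly from 1 orientation. The chaperone median was -0.1 in Arr1-Null and -0.42 in Rpn4-Null. HSP82 read -0.92 and -0.38 in Yap1-Null, and -0.49 and -0.62 in Cad1-Null. Of 31 genes of sulfate assimilation and methionine synthesis 4 fell in Yap1-Null and 5 in Cad1-Null, with medians of -0.16 and -0.29, against the same shares of all genes. The sulfate and methionine median was 0.25 in Arr1-Null and -0.44 in Rpn4-Null. CYS3, the cystathionine gamma-lyase, read -0.08 and -0.74 in Yap1-Null, and -0.52 and -0.92 in Cad1-Null. The 32 proteasome genes had 0 calls in either strain, and the 26 iron uptake genes of Aft1 had 1, ISU2 in Yap1-Null at -1.17 and -0.12. ARG8, an enzyme of ornithine synthesis, was the only call among 30 amino acid synthesis genes, at -0.54 and -0.22 in Yap1-Null, where it did not pass, and -0.65 and -0.66 in Cad1-Null, where it fell. Among 38 TCA cycle and respiratory genes 1 fell in Yap1-Null (MDH1), and in Cad1-Null 1 rose (SDH2) and 1 fell (IDH1), with medians of -0.09 and 0.10; MDH1 and SDH2 are named after their values were seen. With at most 1 call each way in a strain, the iron, amino acid and TCA cycle lists had too few calls to set against the shares of all genes, and nothing is read from them.

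**Figure D4:**
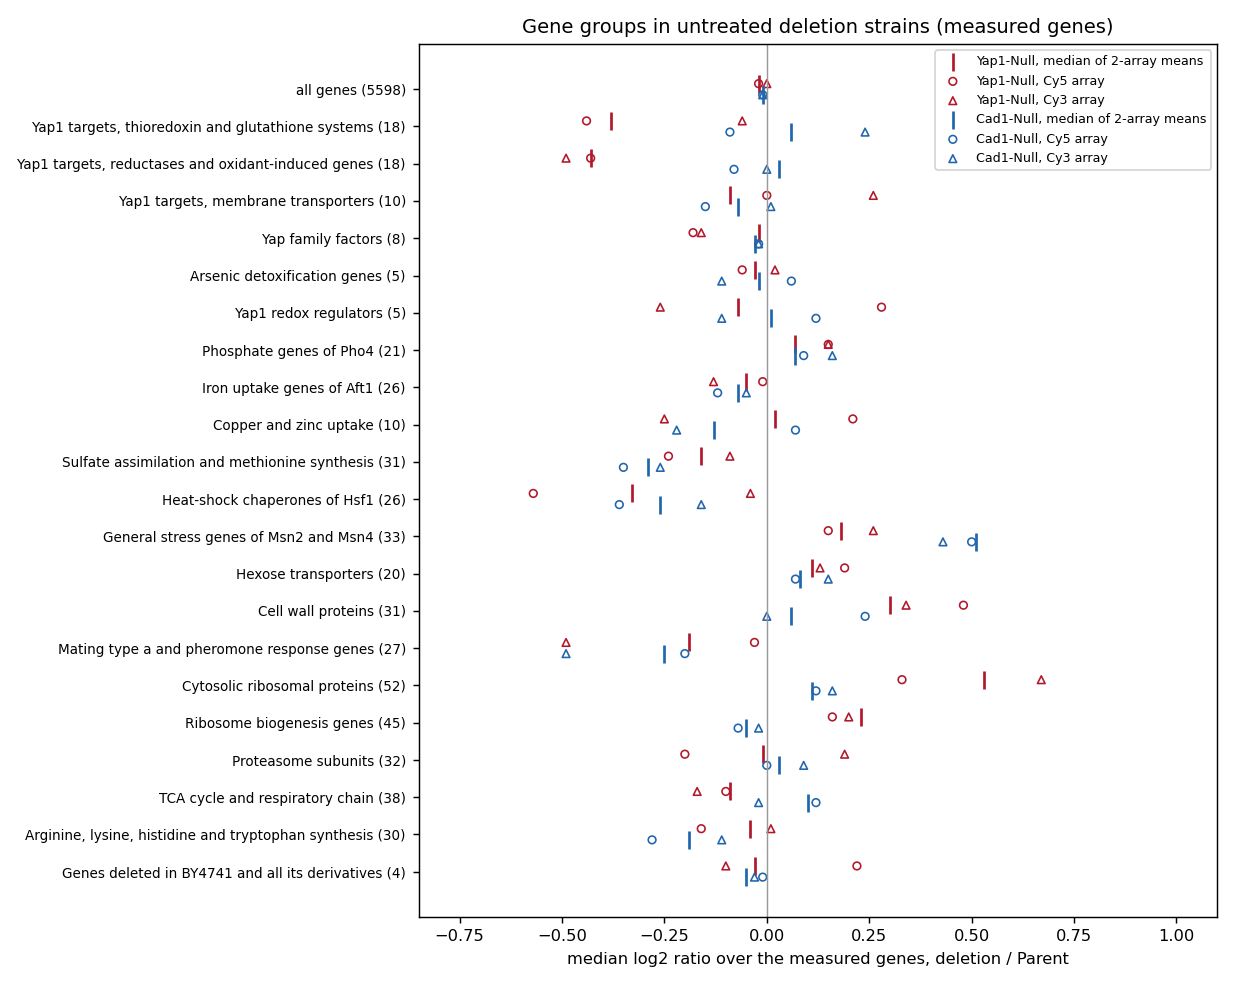
Median log2 ratio of deletion strain over Parent (x axis) over the measured genes of each group, whose number stands in brackets; red is Yap1-Null, blue is Cad1-Null, bars are medians of pair means, circles and triangles medians on the arrays with the deletion strain in Cy5 and Cy3. Ribosomal protein genes lie highest in Yap1-Null (0.53), general stress genes lie highest in Cad1-Null (0.51), and the first 2 Yap1 target groups lie at -0.38 and -0.43 in Yap1-Null, against 0.06 and 0.03 in Cad1-Null.

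The direct comparison of the deletion strains asked which genes differ between them. Here a dye effect that is the same in both strains drops out within each orientation, and so does the Parent where it was shared. Across all genes the differences still did not repeat between orientations. They correlated at -0.02, and 44.2% of genes had the same sign in both. Only 13 of 5598 genes passed, 4 higher in Yap1-Null than in Cad1-Null (0.0715%) and 9 lower (0.161%), all with the same sign in both orientations. At an unadjusted p under 0.05 there were 175. Besides YAP1 and CAD1, the 11 genes were OYE3, YML131W, STL1, GRE2, GPX2, TKL2, ALD3 and GND2, lower in Yap1-Null, and MIN4, ERG25 and YBR238C, higher in Yap1-Null. With each array counted as a replicate, although the arrays of a pair are a dye swap, 6 of the 13 passed. Once the array number was added as a block 12 passed, all but YBR238C. When only the 8 arrays of untreated deletion strains were fitted, with the orientation as a block, YAP1 and CAD1 alone passed. The arrays with the deletion strains in Cy5 alone kept YAP1, CAD1 and MIN4 among the 13, and those with them in Cy3 alone kept YAP1 and CAD1.

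The 8 lower genes fell into 2 kinds. OYE3, YML131W, STL1 and GPX2 were below Parent in Yap1-Null and not called in Cad1-Null, with differences of -1.39, -1.41, -1.32 and -1.00. TKL2, ALD3 and GND2 were not called in Yap1-Null and above Parent in Cad1-Null, with differences of -1.00, -0.96 and -0.95. TKL2, the minor transketolase, read -0.47 and 0.44 in Yap1-Null, and 0.68 and 1.29 in Cad1-Null. ALD3, a stress-induced aldehyde dehydrogenase, read -0.25 and -0.24 in Yap1-Null, and 0.66 and 0.76 in Cad1-Null. In untreated Arr1-Null and Rpn4-Null, TKL2 had means of -0.31 and 1.14, and ALD3 means of 0.79 and 1.52. GRE2 belonged to the first kind, with a difference of -1.01, and its Cad1-Null arrays both lay above 0.

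Among the higher genes, ERG25, a sterol methyl oxidase of ergosterol synthesis, had opposite signs in the strains. It read 0.44 and 0.55 in Yap1-Null, and -0.57 and -0.60 in Cad1-Null, and both of its probes did so. The difference was 1.08 (adjusted p = 0.00746), although only the Cad1-Null value passed against Parent. YBR238C, which encodes a mitochondrial membrane protein, read 1.31 and 0.83 in Yap1-Null, against -0.05 and 0.19 in Cad1-Null. Of the 46 Yap1 targets 4 differed between the strains, all lower in Yap1-Null, against 0.161% of all genes.

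**Figure D5:**
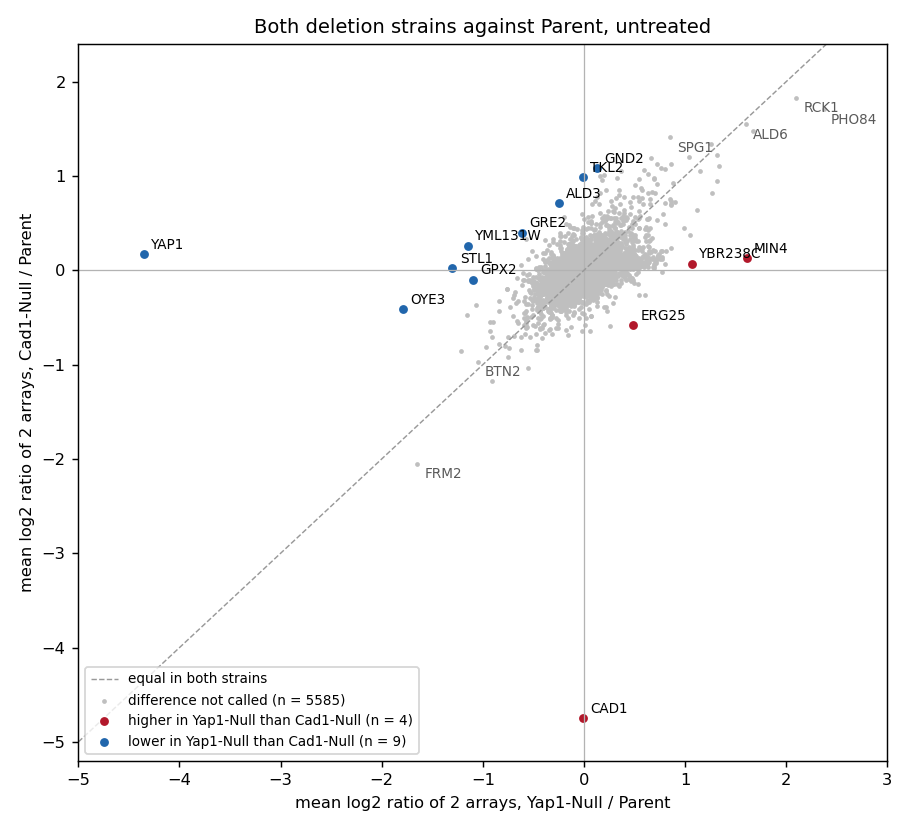
Mean log2 ratio over Parent in Yap1-Null (x axis) against Cad1-Null (y axis), 1 point per gene; red and blue mark the 4 genes called higher and the 9 called lower in Yap1-Null than in Cad1-Null, and the dashed line marks equal values. OYE3, STL1, GPX2 and YML131W lie far left near 0 on the y axis, GND2 and TKL2 lie near 1 on the y axis, and FRM2, RCK1 and PHO84 lie far from 0 in both strains.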

How the data were processed

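Per the labels, the 4 arrays compared untreated Yap1-Null or Cad1-Null RNA with Parent RNA. The authors hybridised directly labelled RNA to Agilent oligonucleotide arrays and deposited log10 ratios, made with Feature Extraction and handled in Rosetta Resolver, which in the table already run as deletion over parent, or treated over untreated, limited to 100-fold. The log10 values were multiplied into log2 ratios. Of 10807 probes 9202 had a gene name in the platform table, 9194 matched a gene of the RefSeq table (R64, used for names and gene order only) by gene ID, and probes of a gene were averaged (5598 genes). Dye-swapped arrays were averaged into 10 pairs in 9 conditions, over all 20 Agilent arrays, and fitted with limma 3.58.1 in R 4.3.3 (lmFit, eBayes, two-sided, Benjamini-Hochberg over all genes, threshold 0.05). The fit had 1 residual degree of freedom and a prior SD of 0.172 with infinite prior degrees of freedom. It was run on simulated data drawn with that same SD for every gene and without a dye gap. That run does not test whether such a spread holds for these arrays. Replicates of a culture were not given, and the number of arrays limits the precision. The p-values rest on the spread between the 2 pairs of Parent with AsIII and on the prior. They do not measure the gap between the arrays of a tested pair. Over genes, the SD of 1/2 of that gap was 0.41 in Yap1-Null and 0.251 in Cad1-Null. For Parent with AsIII it was 0.192 and 0.245. Array number equals dye orientation in the untreated deletions, while Parent with AsIII has arrays numbered 1 to 4. Deviations of same-numbered arrays from their pair means correlated between 0.68 and 0.96 among the 4 untreated strains. Alternatives therefore used the array number as a block over all 20 Agilent arrays, and dye orientation over the untreated deletion arrays. With a block, the value tested for a single strain stands at the first block level (array 1, or Cy3), not at the pair mean. Also tried were robust eBayes, centring on medians, single arrays as replicates, either orientation alone, medians of probes, probes at the limit left out, the sign of the Cy3 arrays turned, and a 2-fold rule.

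The members and gene lists were chosen with earlier results of these data known. Of 506 list entries 492 matched, and the 8 mitochondrial DNA genes on the lists were not analysed here. Named genes are the deleted genes and their neighbours, members of the Yap1, arsenic and redox lists, the 10 largest calls each way per comparison, and up to 4 members of each other list. Python 3.11.15 with pandas 2.3.3 and matplotlib 3.10.9 did the other steps.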

Additional observations from a re-analysis of the deposited data

Results flagged for a closer look

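A total of 13 genes had effects that differed between the 2 deletion strains by the limma test of the difference, given here as Yap1-Null minus Cad1-Null on the log2 scale. YAP1 (-4.53) and CAD1 (4.75) are the deleted genes. The other genes that were lower in Yap1-Null were YML131W (-1.41), OYE3 (-1.39), STL1 (-1.32), GRE2 (-1.01), GPX2 (-1.00), TKL2 (-1.00), ALD3 (-0.96) and GND2 (-0.95). Those that were higher in Yap1-Null were MIN4 (1.49), ERG25 (1.08) and YBR238C (1.00). Adjusted p-values of the 11 genes that were not deleted ran from 1.95e-06 for MIN4 to 0.0427 for GND2, and in the fit on untreated arrays alone from 0.0986 for YML131W to 0.625 for YBR238C.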

How the results depend on the processing

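Median centring kept the number of genes that passed within 1.5 times in both strains and in the difference. Medians of probes and leaving out probes at the limit left the numbers unchanged, but neither was a real check. A median equals the mean for a gene with at most 2 probes, and no probe with a gene name was at the limit on the 4 arrays. Robust eBayes gave 354 genes in Yap1-Null. With each array as a replicate 75 genes passed in Yap1-Null, 74 in Cad1-Null and 7 in the difference. Adding the array number as a replicate block gave 1564, 768 and 23. With this block, and with the orientation block below, the counts of a single strain refer to the first block level and not to the pair mean. Either orientation alone gave 331 to 2053 genes in Yap1-Null, 28 to 288 in Cad1-Null and 2 to 8 in the difference. With the Cy5 arrays alone 177 of the 217 genes of Yap1-Null still passed, and with the Cy3 arrays alone 62. For the difference, 3 of 13 passed with the Cy5 arrays alone (YAP1, CAD1 and MIN4) and 2 with the Cy3 arrays alone (YAP1 and CAD1). The untreated arrays alone with the orientation as a block, chosen after seeing the data, gave 153 genes in Yap1-Null (86 of the 217 among them), 453 in Cad1-Null and 2 in the difference. The 2-fold rule gave 25 genes in Yap1-Null and 24 in Cad1-Null. Turning the sign of the Cy3 arrays gave 2261, 309 and 1, and it moved YAP1 in Yap1-Null to 0.31, CAD1 in Cad1-Null to 0.81, and their differences between strains to 0.18 and -0.40, against the labels, so it was not carried to other genes. The cause of these changes was not tested. Among 110 calls of single named genes, 585 of 774 recalculations kept the call, 185 kept the direction without passing and the 4 just given reversed. Medians of probes and the limit on probes are not counted there, because named genes had at most 2 probes and none at the limit. Depth cannot be judged because intensities were not used here.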

Other observations

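Other arrays of the series measured the response to 100 μM AsIII over 2 h, each strain against its own untreated control, and some of the genes that were low in untreated Yap1-Null were high on the Parent arrays with arsenite while others were not. In Yap1-Null the mean log2 ratios of 2 arrays were 2.46 for OYE3, -0.31 for GPX2, 0.41 for YML131W, 2.26 for HBN1 and 0.51 for FRM2. In Cad1-Null they were 6.51 for OYE3, 4.04 for GPX2, 3.05 for YML131W, 5.03 for HBN1 and 3.67 for FRM2. On the 4 Parent arrays they were 6.54 for OYE3, 3.88 for GPX2, 3.40 for YML131W, 4.55 for HBN1 and 2.28 for FRM2. YNL134C, also low in untreated Yap1-Null, averaged -2.11 in Yap1-Null, 0.75 in Cad1-Null and -0.04 in the Parent with arsenite, where the 4 arrays ran from -0.22 to 0.32. STL1, low in untreated Yap1-Null, averaged -0.80 in the Parent with arsenite. RCK1, high in both untreated deletions, averaged -4.39 in Yap1-Null, -4.02 in Cad1-Null and -2.69 in the Parent with arsenite. The untreated cells of a deletion strain enter both its ratio to Parent and its response to arsenite, so these values are not independent of those above.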
